A study of Mus musculus with 9 samples.

Results

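The MHC class I presentation genes described here are 10 genes of the class I antigen pathway: the chains H2-K1, H2-D1 and B2m, the transport and loading genes Tap1, Tap2 and Tapbp, the immunoproteasome subunits Psmb8 and Psmb9, the transcription regulator Nlrc5, and the trimming enzyme Erap1. They were taken by gene name from a table of estimated reads for 57238 entries, and all 10 were among the 15028 genes that passed a filter on low counts. RNA was sequenced from dendritic cells grown from bone marrow (BMDCs) of wildtype C57BL/6 mice with 20 ng/ml of GM-CSF, a growth factor for myeloid cells. The labels give 6 days of culture, and the study's methods a longer one. Control BMDCs (CTR) received no exosomes, which are small vesicles shed by cells. For 24 hours, NE-treated BMDCs were given exosomes (NE) shed by NIH 3T3, a mouse fibroblast line that is not cancerous. TDE-treated BMDCs were given tumor-derived exosomes (TDE) for the same time. The labels do not name the tumor line, and the methods name TC-1 or MC38 for exosomes not otherwise specified, without a dose for this experiment. Each group had 3 libraries, and nothing says whether they came from separate mice or cultures, so the p-values measure the spread between libraries.

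Cells display fragments of their own proteins, and dendritic cells also fragments of engulfed ones, on MHC class I molecules to CD8+ T cells. The proteasome cuts proteins into peptides, and its inducible subunits, among them Psmb8 (LMP7) and Psmb9 (LMP2), replace constitutive ones when cells are exposed to interferon. The Tap1 and Tap2 proteins form the pump that carries peptides into the endoplasmic reticulum, where Erap1 trims them and tapasin (Tapbp) bridges the pump to an empty class I heavy chain. A heavy chain such as H2-K1 or H2-D1 reaches the surface when it is joined to beta-2-microglobulin (B2m) and a peptide, and Nlrc5 is a transactivator of these genes.

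The promoters of class I genes share an enhancer of spaced boxes through which Nlrc5 acts, and RefSeq promoter sequences (GRCm38.p6, 250 bases before to 50 bases after each start) were read to show it. The table held a promoter for 8 of the 10 members. In H2-K1, H2-D1 and B2m a CRE-like box, TGACG, was followed after 20 bases by an inverted CCAAT box, ATTGG. The Tap1 promoter held a CRE-like box but no inverted CCAAT box at that distance. These 4 stretches are shown because they set the chain genes beside Tap1, the only member called below, and the capitals mark the boxes:
H2-K1: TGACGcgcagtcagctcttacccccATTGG
H2-D1: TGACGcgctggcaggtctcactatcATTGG
B2m: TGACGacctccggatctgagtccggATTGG
Tap1: TGACGacagagggtcctgccctcaatctgg
They lie at chr17:34000359-34000388 on the minus strand for H2-K1, where the first base is 41 bases upstream of the start. For H2-D1 they lie at chr17:35262993-35263022, plus strand, 101 bases upstream. For B2m they lie at chr2:122147609-122147638, plus strand, 78 bases upstream, and for Tap1 at chr17:34187470-34187499, plus strand, 86 bases upstream. The spaced pair of boxes was found in 31 of 32851 promoters (0.0944%) and in 3 of the 8 members' promoters, with the spacing chosen after these sequences had been seen.

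Other motifs were searched on both strands of the same promoters. The kappa B motif GGGNNTTCC was found in H2-K1 and H2-D1 as GGGGATTCC and in 5.82% of all promoters. The core of an interferon-stimulated response element, GAAANNGAA, was found in B2m and Erap1 and in 8.56% of all promoters. The interferon-gamma activated site TTCNNNGAA was found in Psmb8 and in 8.3% of all promoters. CCAAT in either direction was found in 37.4% of all promoters and TGACG in 20.8%. A match describes letters in these windows and no binding.

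Of the members, 7 lie in the MHC region of chromosome 17. In GRCm38, Psmb9 (34181987 to 34187764, minus strand), Tap1 (34187553 to 34197225, plus strand), Psmb8 (34197721 to 34201454, plus strand) and Tap2 (34203527 to 34216321, plus strand) are consecutive. The RefSeq starts of Tap1 and Psmb9 face away from each other with 225 bases between them, so the CRE-like box printed for Tap1 is the same 5 bases that match upstream of Psmb9 on the other strand. Tapbp lies at 33915899 to 33929292 (plus strand), H2-K1 at 33996017 to 34000347 (minus strand) and H2-D1 at 35262730 to 35267499 (plus strand). B2m lies on chromosome 2 (122147686 to 122153083, plus strand), Nlrc5 on chromosome 8 (94434356 to 94527272, plus strand) and Erap1 on chromosome 13 (74639568 to 74693201, plus strand).

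The libraries held 17469782 to 21092943 estimated reads, and 3 reads, the limit that a count of 0 allows, corresponded to 0.135 to 0.189 CPM (reads scaled to a common library size, normalized by TMM here and throughout). CTR replicate 1 stood apart, with a TMM factor of 0.751 against 0.999 to 1.07 in the other libraries and a mean correlation of 0.870 with the rest of its group. In this library short genes were high and long genes low relative to the other CTR libraries (Spearman rho of the log2 difference with gene length, -0.49 across 15028 genes, which are not independent). NE replicate 3 differed from its group in the same sense (rho -0.51). Each library was set against the mean of the others of its group, so the values within a group depend on each other. By this measure rho was 0.38 and 0.51 for CTR replicates 2 and 3, and 0.42 and 0.36 for NE replicates 1 and 2. In the TDE libraries it ran from -0.18 to 0.12. These correlations describe the libraries, and the comparisons of the members are given with and without CTR replicate 1.

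The labelled cell type was checked against markers. Markers said to rise or fall passed an adjusted p of 0.05 (edgeR) in TDE against CTR. Of all tested genes, 16.9% passed in that comparison with all libraries and 34.4% without CTR replicate 1. Summed over 10 dendritic cell markers, levels were 2647 to 2820 CPM in TDE libraries, 4669 to 6038 CPM in CTR and NE libraries other than CTR replicate 1, and 14822 CPM in that library. Of these, 6 fell in TDE-treated against CTR BMDCs, or 9 without CTR replicate 1, including H2-Aa, a chain of MHC class II (1441, 999 and 835 CPM in CTR, 478, 504 and 499 CPM in TDE, adjusted p = 0.0083, edgeR). The 10 macrophage markers summed to 4262 to 5569 CPM in CTR and NE and to 7156 to 7594 CPM in TDE, where Adgre1 and Marco rose and C1qb fell. The median log2 fold change over these markers was below 0, at -0.24, and without CTR replicate 1, 3 of them rose and 5 fell. The 10 neutrophil markers summed to 3077 to 3373 CPM in TDE, to 7118 to 10810 CPM in CTR and NE other than CTR replicate 1, and to 28733 CPM in that library. Of these, 8 fell, and all 10 did without CTR replicate 1. The markers of eosinophils, mast cells and basophils summed to 107 to 130 CPM in TDE, to 463 to 609 CPM in CTR and NE other than CTR replicate 1, and to 1533 CPM in that library. All 6 tested genes of that list fell with and without CTR replicate 1, and Mcpt4 was at 0 in every library. Lymphocyte markers summed to 23.01 to 40.4 CPM in CTR and NE and to 11.1 to 11.4 CPM in TDE, and all 5 tested genes fell (6 of 6 without CTR replicate 1). Fibroblast markers summed to 6.28 to 7.65 CPM in CTR and NE and to 10.6 to 11.4 CPM in TDE, with Dcn and Pdgfrb higher and 4 of the 6 tested genes not past the threshold, of which Col1a2 fell without CTR replicate 1. Epithelial markers summed to 8.21 to 12.7 CPM in CTR and NE and to 4.36 to 7.05 CPM in TDE. Cdh1 fell among the 2 tested, with and without CTR replicate 1, and Krt5 was at 0 in every library. These marker sums moved with the TDE group, and their part in the results below was not tested. In bulk RNA fewer cells of a type and less RNA per cell cannot be told apart.

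Per kilobase of gene length, the chains were the most abundant members in every group. In CTR BMDCs, B2m stood at 1997 ± 355 CPM per kilobase (SD, n = 3), above H2-D1 (1018 ± 142) and H2-K1 (929 ± 323), which overlapped each other. Psmb8 (126 ± 104), Tapbp (126 ± 40.6), Psmb9 (56.2 ± 39.9), Tap2 (32.4 ± 10.5) and Tap1 (29.3 ± 6.27) followed, and each overlapped its neighbour in this order. Erap1 (12.2 ± 1.41) and Nlrc5 (5.91 ± 1.21) were the lowest, overlapping neither Tap1 nor each other. In NE-treated BMDCs Tap1 was again eighth, at 26.1 ± 0.399 CPM per kilobase, and Tap2, at 26.9 ± 2.59, overlapped it. In TDE-treated BMDCs Tap1 stood sixth, at 48.4 ± 2.39 CPM per kilobase, above Psmb9 (39.3 ± 2.69) and Tap2 (32.0 ± 1.61), and no library of either reached it. Library by library, the levels of the 10 members can be compared in the plot of CPM by group.

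**Figure D1:**
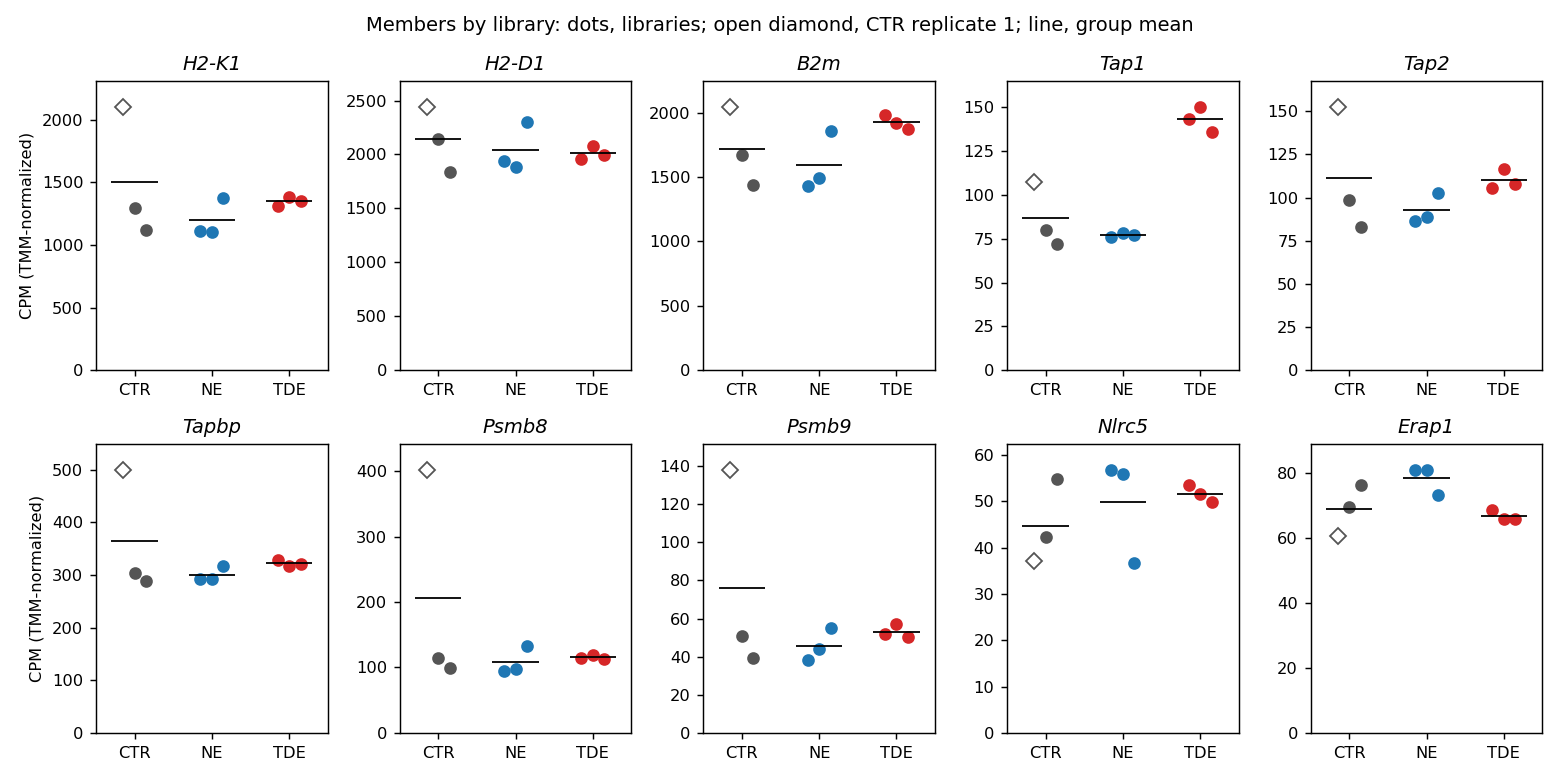
CPM (TMM-normalized, linear axis from 0) of the 10 members in each library of the CTR, NE and TDE groups, with a line at the group mean and CTR replicate 1 as an open diamond. Tap1 lies between 136 and 150 CPM in the TDE libraries and between 72.2 and 107 CPM in the others, while for Psmb8 and Psmb9 CTR replicate 1 alone lies far above all other libraries.

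The first comparison asked which members differed between BMDCs given tumor-derived exosomes and BMDCs given none. Of the 10 members, 1 (Tap1) rose and none fell, where 16.9% of all 15028 tested genes passed the same threshold (adjusted p under 0.05, edgeR's quasi-likelihood test with Benjamini-Hochberg adjustment), 7.57% of them higher and 9.34% lower in TDE. Tap1, a subunit of the peptide pump, was 1.65-fold higher. The other 9 members had log2 fold changes between -0.83 and 0.21, with standard errors from 0.13 for Erap1 to 0.49 for Psmb8. That of Tap1 was 0.16. The median over the members was -0.07 on the log2 scale and -0.05 over all tested genes.

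Tap1 was at 107, 80.2 and 72.2 CPM in the CTR libraries, at 76.0, 78.3 and 76.9 CPM in the NE libraries and at 143, 150 and 136 CPM in the TDE libraries. Every TDE library was above every other library, and CTR replicate 1 was the highest of the rest. Against CTR the log2 fold change was 0.72 ± 0.16 (SE, n = 3 per group) with an adjusted p of 0.019 by edgeR, and without CTR replicate 1 it was 0.90 ± 0.08 (1.86-fold) with an adjusted p of 5e-05. The adjusted p was above 0.05 when CTR replicate 2, or TDE replicate 1, 2 or 3, was left out (0.059, 0.072, 0.077 and 0.059, edgeR) and in a fit to the 6 TDE and CTR libraries (0.090). In these fits the log2 fold change of Tap1 was 0.68, 0.73, 0.69, 0.77 and 0.70. With the replicate number as a block, a pairing that neither labels nor methods state, it was 0.74 (adjusted p = 0.054, edgeR).

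The partner gene Tap2 was at 152, 98.6 and 83.2 CPM in CTR, 86.4, 88.6 and 103 CPM in NE and 106, 116 and 108 CPM in TDE. The TDE libraries lay within the range of CTR, whose replicate 1 was the highest library of all. Its log2 fold change against CTR was -0.02 ± 0.22 (adjusted p = 0.96, edgeR), and without CTR replicate 1 it was 0.27 ± 0.11 (adjusted p = 0.086, edgeR). Tapbp, which encodes the bridging chaperone tapasin, was at 499, 303 and 289 CPM in CTR, 292, 293 and 317.5 CPM in NE and 328, 318.0 and 321 CPM in TDE. Here too CTR replicate 1 set the upper end. Its log2 fold change against CTR was -0.18 ± 0.21, or 0.11 ± 0.07 without CTR replicate 1, and neither passed the test.

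The immunoproteasome subunits had the widest spread. Psmb8 was at 402, 115 and 99.6 CPM in CTR, 95.2, 98.1 and 133 CPM in NE and 115, 119 and 113 CPM in TDE. CTR replicate 1 was 3.74-fold above the mean of the other CTR libraries, and the rest of the libraries of all groups overlapped. Against CTR the log2 fold change was -0.83 ± 0.49 (adjusted p = 0.25, edgeR), and without that library it was 0.10 ± 0.14. Psmb9 showed the same pattern at 138, 51.0 and 39.1 CPM in CTR, 38.1, 44.0 and 55.2 CPM in NE and 51.7, 57.3 and 50.4 CPM in TDE. CTR replicate 1 was 3.06-fold above the other CTR libraries. The log2 fold change of Psmb9 against CTR was -0.52 ± 0.42 (adjusted p = 0.40, edgeR) and turned to 0.23 ± 0.16 without CTR replicate 1.

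Among the chains, B2m, the light chain shared by class I molecules, was at 2042, 1674 and 1436 CPM in CTR, 1427, 1493 and 1861 CPM in NE and 1979, 1923 and 1873 CPM in TDE. The TDE libraries were above every NE library and above 2 of the 3 CTR libraries. Its log2 fold change against CTR was 0.16 ± 0.18 (adjusted p = 0.53, edgeR) and 0.30 ± 0.12 without CTR replicate 1 (adjusted p = 0.087, edgeR). H2-K1 was at 2101, 1296 and 1118 CPM in CTR, 1110, 1102 and 1377 CPM in NE and 1314, 1383 and 1350 CPM in TDE. H2-D1 was at 2437, 2142 and 1842 CPM in CTR, 1940, 1886 and 2303 CPM in NE and 1960, 2081 and 1995 CPM in TDE. For both heavy chains the TDE libraries lay inside the range of CTR, and their log2 fold changes against CTR were -0.16 ± 0.24 and -0.09 ± 0.16, neither past the test. Without CTR replicate 1 they were 0.15 ± 0.11 and 0.00 ± 0.10.

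Nlrc5 and Erap1, the longest members at 7578 and 5644 bases, differed from the others in that CTR replicate 1 was their lowest CTR library. Nlrc5 was at 37.2, 42.2 and 54.9 CPM in CTR, 56.8, 55.8 and 36.8 CPM in NE and 53.6, 51.5 and 49.9 CPM in TDE. Its TDE libraries fell inside the range of both other groups, with a log2 fold change against CTR of 0.21 ± 0.21 (adjusted p = 0.49, edgeR). Without CTR replicate 1 it was 0.08 ± 0.19 (adjusted p = 0.78, edgeR). Erap1 was at 60.4, 69.5 and 76.3 CPM in CTR, 80.9, 80.8 and 73.2 CPM in NE and 68.6, 65.7 and 65.7 CPM in TDE. Its TDE libraries were below every NE library. They were inside the range of CTR only through CTR replicate 1, and below CTR replicates 2 and 3. The log2 fold change against CTR was -0.05 ± 0.13, and without CTR replicate 1 it was -0.14 ± 0.08 (adjusted p = 0.22, edgeR).

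The second comparison asked whether tumor-derived exosomes and exosomes of non-cancerous cells left BMDCs with different levels of these genes, and it shares the TDE libraries with the first. Tap1 again was the only member called, at a log2 fold change of 0.89 ± 0.16 (1.86-fold, adjusted p = 0.0085, edgeR), and 13.9% of all tested genes passed the threshold, 6.73% higher and 7.21% lower in TDE. No other member passed the test. Their log2 fold changes were 0.27 ± 0.18 for B2m, 0.25 ± 0.22 for Tap2, 0.22 ± 0.42 for Psmb9 and 0.17 ± 0.24 for H2-K1. They were 0.10 ± 0.21 for Tapbp, 0.09 ± 0.48 for Psmb8, 0.05 ± 0.21 for Nlrc5, -0.02 ± 0.16 for H2-D1 and -0.23 ± 0.13 for Erap1 (adjusted p = 0.30, edgeR). The median over the members was 0.14, and over all tested genes -0.02. The plot of fold changes sets both comparisons side by side.

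**Figure D2:**
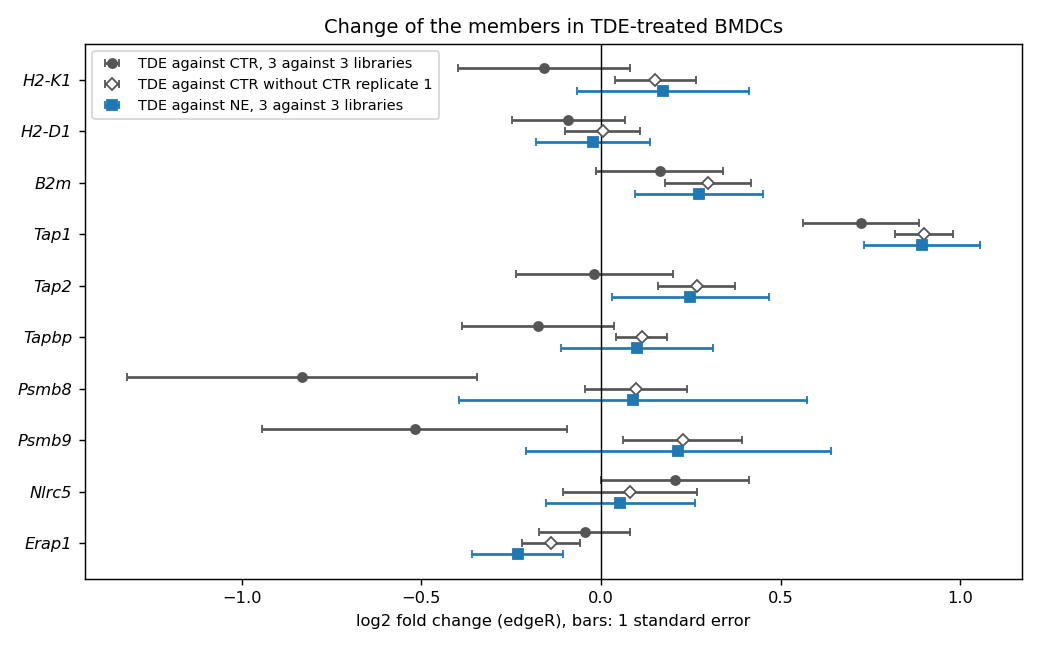
Log2 fold change of each member from edgeR, with bars of 1 standard error, for TDE against CTR (filled circles), TDE against CTR without CTR replicate 1 (open diamonds) and TDE against NE (squares). Tap1 lies at 0.72, 0.90 and 0.89, while Psmb8 moves from -0.83 to 0.10 and Psmb9 from -0.52 to 0.23 when CTR replicate 1 is left out.

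Counted by libraries alone, Tap1, B2m, Tap2 and Tapbp were higher in every TDE than in every NE library, and Erap1 was lower, where 26.8% of all tested genes did not overlap in the higher direction and 27.7% in the lower. Against CTR, Tap1 alone of the members did not overlap, beside 22.2% of all tested genes that were higher. Without CTR replicate 1, TDE was above CTR for H2-K1, B2m, Tap1, Tap2 and Tapbp and below it for Erap1, beside 30.8% of tested genes higher and 32.2% lower. By these counts, 4 of 10 and 5 of 10 members were higher, against NE and against CTR without that library.

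The number of members called depended on the libraries that stand apart. Without CTR replicate 1, Tap1 remained the only member called against CTR, where 34.4% of all tested genes passed. Against NE the same fit added Erap1, lower in TDE (log2 fold change -0.24 ± 0.07, adjusted p = 0.028, edgeR), beside 40.7% of all tested genes. When NE replicate 3 was also left out, a choice made after seeing the data, 3 members rose against CTR, namely Tap1, B2m (0.30 ± 0.07, adjusted p = 0.0060, edgeR) and Tap2 (0.26 ± 0.08, adjusted p = 0.024, edgeR). In that fit 45.2% of all tested genes passed, a larger share than that of the members. Against NE, 7 of the 10 members passed in that fit, beside 45.5% of all tested genes. Of these, 6 were higher, with log2 fold changes of 0.25 for Psmb8, 0.28 for H2-K1, 0.32 for Tap2, 0.36 for Psmb9, 0.39 for B2m and 0.88 for Tap1, and Erap1 was lower at -0.29. After Tap1, the next largest of these values was that of B2m. With offsets fitted to gene length in all 9 libraries, Tap1 was the only member called in either comparison, beside 24.9% of tested genes against CTR and 21.1% against NE.

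The third comparison asked whether exosomes of non-cancerous cells changed these genes. None of the 10 members was called, and none had an unadjusted p under 0.05. Over all tested genes 0.0% were called by edgeR, 487 of 15028 had an unadjusted p under 0.05, and DESeq2 called 3 and voom with quality weights 18. The log2 fold changes of the members ran from -0.92 ± 0.49 for Psmb8 to 0.19 ± 0.13 for Erap1. Without CTR replicate 1 they ran from -0.01 ± 0.11 for H2-K1 to 0.10 ± 0.08 for Erap1. Tap1 in NE against CTR was at -0.17 ± 0.16, or 0.01 ± 0.08 without CTR replicate 1.

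In both CTR replicate 1 and NE replicate 3 the longest members were displaced downward and most of the others upward. In CTR replicate 1 the displacement, in log2(CPM + 0.5) from the mean of the other CTR libraries, was 1.90 for Psmb8 and 1.62 for Psmb9, which are 1628 and 1352 bases long. It was 0.80 for H2-K1, 0.75 for Tap2 and Tapbp, 0.50 for Tap1, 0.40 for B2m and 0.29 for H2-D1. It was -0.27 for Erap1 and -0.37 for Nlrc5. B2m, the shortest member at 860 bases, was displaced less than Psmb8 and Psmb9. In NE replicate 3 the displacement was 0.46 for Psmb8, 0.43 for Psmb9, 0.35 for B2m, -0.14 for Erap1 and -0.61 for Nlrc5, and for Tap1 it was -0.00.

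**Figure D3:**
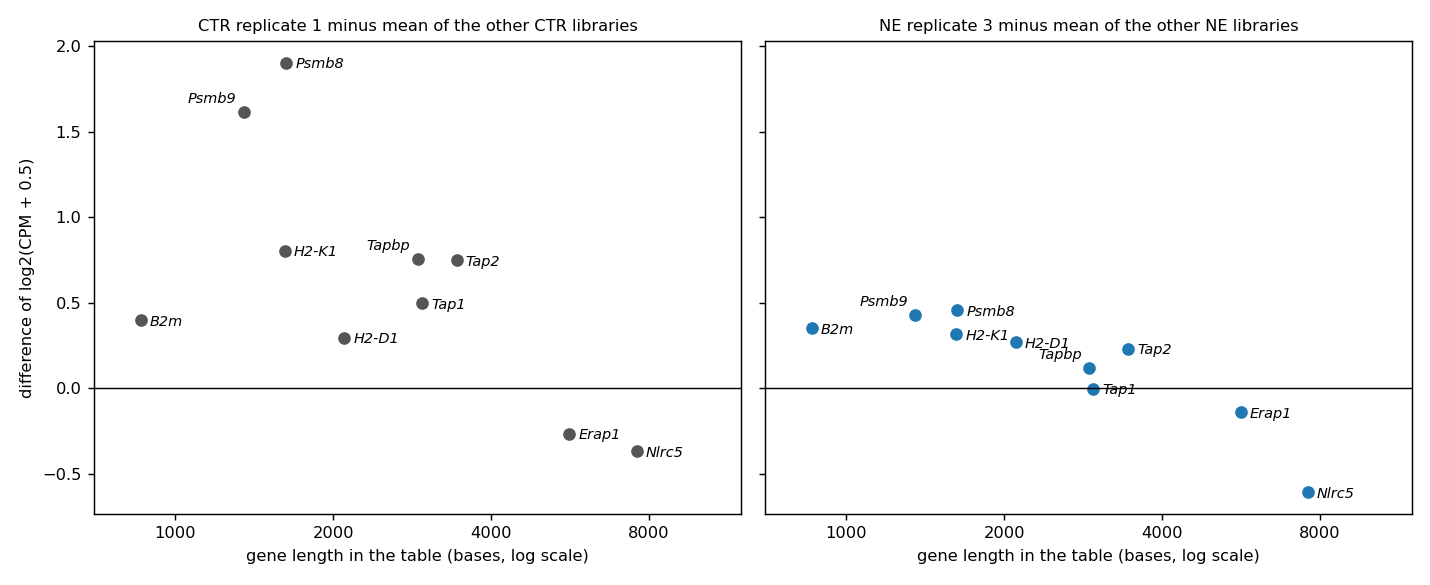
Difference in log2(CPM + 0.5) between CTR replicate 1 and the mean of the other CTR libraries (left) and between NE replicate 3 and the mean of the other NE libraries (right), against gene length in bases on a log axis, 1 point per member. Nlrc5 and Erap1, the longest members, lie below 0 in both panels, and Psmb8 and Psmb9 are the highest in both.

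Ratios of genes within a library do not depend on the scaling of libraries. A relation to gene length, as in CTR replicate 1 and NE replicate 3, need not cancel between genes of unequal length. Each inducible catalytic subunit of the proteasome takes the place of a constitutive one, Psmb8 of Psmb5, Psmb9 of Psmb6 and Psmb10 of Psmb7, and reads per kilobase were divided accordingly. The ratio of Psmb9 to Psmb6 was 0.288, 0.438 and 0.392 in CTR, 0.380, 0.429 and 0.358 in NE and 0.580, 0.583 and 0.499 in TDE. Every TDE library was above every other library. The difference of log2 means was 0.59 against CTR (0.42 without CTR replicate 1) and 0.51 against NE, each with an exact permutation p of 0.1, two-sided, which is the smallest p that 3 libraries against 3 allow. Psmb9 itself was not called against CTR or NE (log2 fold changes -0.52 ± 0.42 and 0.22 ± 0.42, edgeR). The 8 further proteasome genes, Psmb6 among them, all had negative log2 fold changes in both comparisons. A higher ratio can therefore come from less Psmb6 and does not by itself show more Psmb9.

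The ratio of Psmb10 to Psmb7 moved the other way, at 2.12, 0.819 and 0.794 in CTR, 0.867, 0.803 and 0.848 in NE and 0.596, 0.581 and 0.553 in TDE. It was lower in every TDE than in any other library, with a log2 difference of -0.95 against CTR (-0.48 without CTR replicate 1) and -0.54 against NE (exact permutation p = 0.1 for both). The ratio of Psmb8 to Psmb5 was 1.35, 0.859 and 0.951 in CTR, 0.860, 0.874 and 0.842 in NE and 0.968, 1.05 and 1.02 in TDE. It was higher in TDE than in NE by 0.24 on the log2 scale (exact permutation p = 0.1), and overlapped with CTR (-0.03, exact permutation p = 1.0). The 3 inducible subunits thus did not keep a common ratio to their constitutive counterparts across the groups. None of these differences could pass a threshold of 0.05 in this design, also not after adjustment over the 9 comparisons of the 3 ratios.

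A further pair of ratios was computed after the values had been seen, and these are descriptions. Tap1 to Tap2, the subunits of one pump, was 0.822, 0.949 and 1.01 in CTR, 1.02, 1.03 and 0.871 in NE and 1.58, 1.503 and 1.47 in TDE. Every TDE library had more Tap1 than Tap2 reads per kilobase, where the other libraries lay near parity. Tap1 to Psmb9, the neighbours that start head to head, was 0.357, 0.720 and 0.845 in CTR, 0.914, 0.815 and 0.637 in NE and 1.27, 1.20 and 1.23 in TDE. In both ratios no TDE library overlapped the other groups, and CTR replicate 1 and NE replicate 3 were the lowest libraries of their groups.

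**Figure D4:**
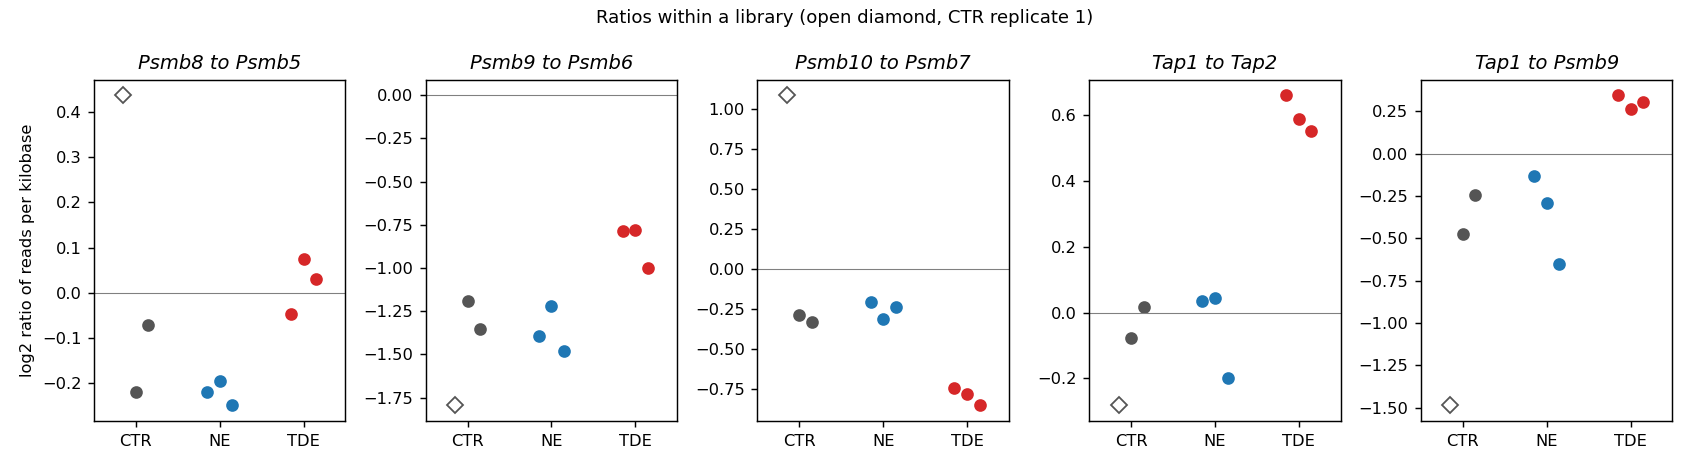
Log2 ratio of reads per kilobase within each library for Psmb8 to Psmb5, Psmb9 to Psmb6, Psmb10 to Psmb7, Tap1 to Tap2 and Tap1 to Psmb9, with CTR replicate 1 as an open diamond. The TDE libraries lie apart from all others in 4 panels, above for Psmb9 to Psmb6, Tap1 to Tap2 and Tap1 to Psmb9 and below for Psmb10 to Psmb7.

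The other genes of the pathway were read from a list of 64, all of which were tested. Against CTR, 3 rose, 4 fell and 57 did not pass, so that 10.9% were called beside 16.9% of all tested genes. Against NE, 2 rose, 1 fell and 61 did not pass, so that 4.69% were called beside 13.9%. Their median log2 fold changes were -0.07 and -0.03. Of the 13 class I and class I-like chains, Mr1, which presents vitamin metabolites of microbes, rose in both comparisons. It was at 12.9, 19.4 and 20.2 CPM in CTR, 19.4, 20.5 and 18.5 CPM in NE and 36.9, 34.6 and 39.9 CPM in TDE. That was a log2 fold change of 1.08 ± 0.18 against CTR (adjusted p = 0.0057, edgeR) and 0.93 ± 0.18 against NE (adjusted p = 0.011, edgeR). H2-Q6 and Cd1d1, a presenter of lipids, fell against CTR, at log2 fold changes of -0.95 ± 0.23 (adjusted p = 0.025, edgeR) and -0.48 ± 0.13 (adjusted p = 0.044, edgeR). Without CTR replicate 1, 6 of the 13 chains (46.2%) passed in each comparison. Of all tested genes, 34.4% passed against CTR and 40.7% against NE in that fit. In both, H2-Q6 and Cd1d1 fell and Mr1 rose. So did H2-T22 (log2 fold changes 0.65 and 0.59), H2-Q7 (0.25 and 0.48) and H2-M3 (0.24 and 0.37), against CTR and NE respectively.

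Of the 8 trimming peptidases, 1 was called with all libraries. Without CTR replicate 1, 1 rose and 2 fell against CTR (37.5%, beside 34.4% of all tested genes). In that fit 1 rose and 1 fell against NE (25.0%, beside 40.7%). Npepps, a cytosolic aminopeptidase, was at 50.2, 116 and 124 CPM in CTR, 117, 114 and 117 CPM in NE and 354, 334 and 344 CPM in TDE. Its rise was 1.83 ± 0.30 on the log2 scale against CTR (adjusted p = 0.0057, edgeR) and 1.57 ± 0.30 against NE (adjusted p = 0.011, edgeR). Erap1, the trimming enzyme of the endoplasmic reticulum, had log2 fold changes of -0.05 and -0.23 in the same comparisons, as given above.

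Of the 9 loading genes, Tapbpl, whose product TAPBPR edits peptides on class I molecules, fell in both comparisons. It was at 22.4, 28.6 and 25.8 CPM in CTR, 24.8, 28.7 and 27.1 CPM in NE and 13.1, 17.02 and 17.5 CPM in TDE, with log2 fold changes of -0.69 ± 0.16 (adjusted p = 0.022, edgeR) and -0.76 ± 0.16 (adjusted p = 0.016, edgeR). Tapbp, its relative, had values of -0.18 ± 0.21 and 0.10 ± 0.21. Of the 15 transcription regulators, Nfyc, a subunit of the factor that binds CCAAT boxes, fell against CTR (-0.88 ± 0.21, adjusted p = 0.025, edgeR). Of the 11 cross-presentation genes, Cybb, the catalytic subunit of the phagocyte oxidase, rose against CTR (0.74 ± 0.19, adjusted p = 0.034, edgeR). In neither list was a gene called against NE with all libraries. Without CTR replicate 1, 1 regulator rose and 4 fell against NE (33.3%, beside 40.7% of all tested genes). Against CTR, 1 rose and 2 fell (20.0%, beside 34.4%). Of the cross-presentation genes, 3 rose and 3 fell against NE in that fit (54.5%), and 2 rose and 3 fell against CTR (45.5%).

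None of the 8 further proteasome genes was called in either comparison with all libraries. Against CTR, 4 of them had an unadjusted p under 0.05 (edgeR), beside 5225 of all 15028 tested genes. Their median log2 fold change against CTR was -1.15 with all libraries and -0.23 without CTR replicate 1. Without CTR replicate 1, Psme3, a subunit of a proteasome activator, fell against CTR (-0.22 ± 0.07, adjusted p = 0.034, edgeR). In the same fit Psmb10, Psme1 and Psme3 fell against NE, at log2 fold changes of -0.57, -0.39 and -0.20 (adjusted p = 0.015, 0.036 and 0.025, edgeR). CTR replicate 1 was far above the other CTR libraries for the constitutive subunits too. Psmb5 was at 164, 74.1 and 57.8 CPM in CTR, Psmb6 at 283, 68.8 and 58.9 CPM and Psmb7 at 149, 64.2 and 52.5 CPM. In TDE libraries they were at 61.0 to 65.3, 52.6 to 59.6 and 58.4 to 60.1 CPM. Psmb10 was at 357, 59.4 and 47.1 CPM in CTR, 51.1, 48.3 and 71.8 CPM in NE and 39.3, 38.7 and 37.6 CPM in TDE. In NE against CTR none of the 64 genes was called, and 1 had an unadjusted p under 0.05. Without CTR replicate 1, the list had 8 genes that rose and 11 that fell against CTR (29.7%, beside 34.4% of all tested genes), and 10 and 14 against NE (37.5%, beside 40.7%).

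**Figure D5:**
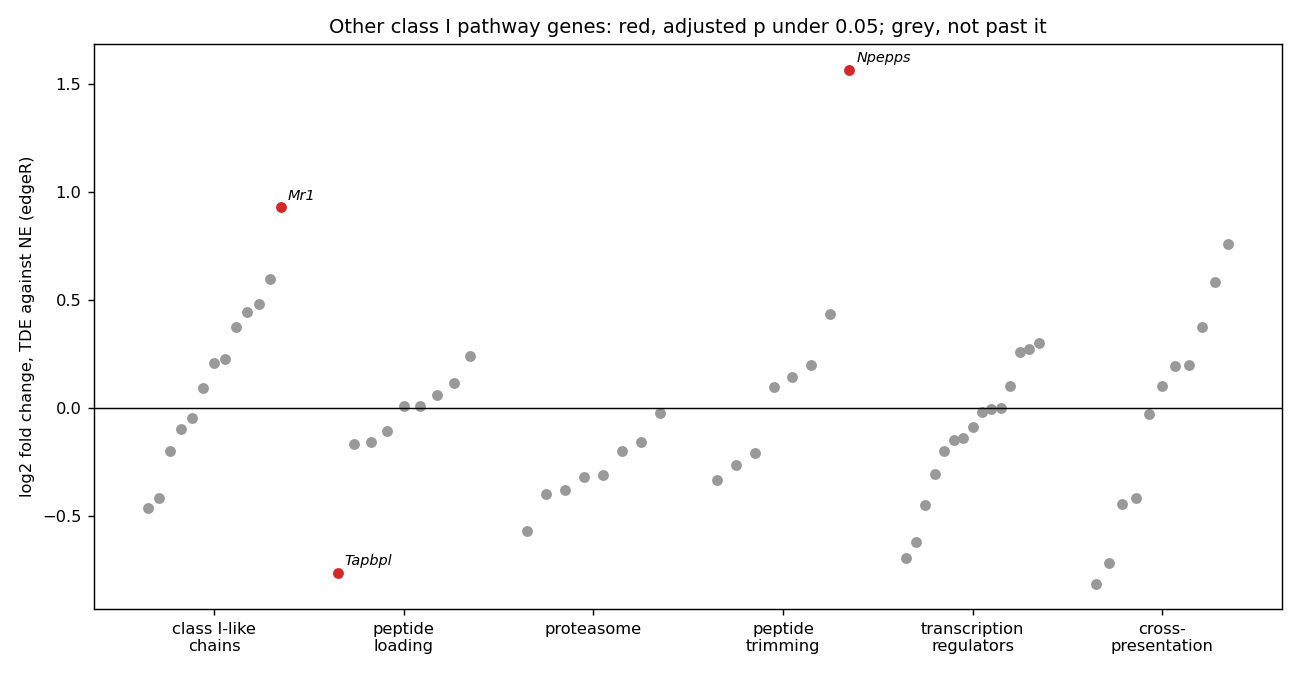
Log2 fold change from edgeR, TDE against NE, of the 64 other genes of the class I pathway, grouped by role and ordered by value within each role, with genes past an adjusted p of 0.05 in red. Npepps (1.57), Mr1 (0.93) and Tapbpl (-0.76) are the 3 genes called, and all 8 proteasome genes lie below 0 without passing the test with all libraries.

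The genes whose levels followed Tap1 most closely over the 9 libraries were Fcgr4 (an activating IgG receptor), Tubb5 (a tubulin), Nectin2 (an adhesion molecule), Milr1 and Slamf9, with Pearson correlations of log2 CPM of 0.994, 0.994, 0.994, 0.993 and 0.993. The points share libraries and groups, so these are descriptions. Fcgr4 was at 101, 62.6 and 51.6 CPM in CTR, 56.7, 59.5 and 60.1 CPM in NE and 198, 196 and 198 CPM in TDE. Of the other members, B2m had the highest correlation with Tap1 (0.76), followed by Tap2 (0.59), H2-K1 (0.41), Psmb9 (0.33) and Tapbp (0.33). It was 0.20 for Psmb8, 0.11 for H2-D1 and 0.08 for Nlrc5, and Erap1 ran against Tap1 (-0.71).

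Some reads of the members could have been assigned to other genes. Of all stretches of 50 bases in their exons, 9.63% in H2-K1 and 12.8% in H2-D1 also occur in other genes, chiefly the related H2-Q genes and each other. The values of H2-K1, H2-D1 and the related H2-Q6 and H2-Q7, for which no share was computed, are therefore uncertain. The share was 23.2% in Tapbp, 11.9% in Psmb8, 11.6% in Tap2, 10.7% in Erap1, 4.19% in Psmb9, 3.33% in Tap1 and 0.338% in Nlrc5, chiefly with overlapping genes. B2m shares none. Tapbp overlaps Zbtb22 on the same strand. Exons of Tap1 and Psmb9 overlap on opposite strands, as do those of Tap2, Tapbp, Psmb8, Nlrc5 and Erap1 with neighbouring genes (Erap1 with Cast), and whether strand was used in counting is not stated.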

How the data were processed

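RNA of 9 BMDC libraries, 3 each of CTR, NE and TDE, was extracted with TRIzol. The submitters' processing notes name TopHat2 2.1.1, DESeq2 1.24.0 and R 3.3.1. The counting program, genome build and annotation are not given in the sources used here. The authors deposited estimated counts (expected counts, without normalization) per gene, with gene lengths and group means that were not used. Libraries held 17469782 to 21092943 estimated reads, and the floors in CPM cover counting error only. Values after ± are the SD over libraries or the standard error of the fit, as named.

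Estimated counts were rounded, filtered with filterByExpr, normalized by TMM and fitted with 1 mean per group over the 9 libraries (edgeR 4.0.16, R 4.3.3). P-values of the quasi-likelihood F test were adjusted by the Benjamini-Hochberg method over all tested genes, with a threshold of 0.05. The standard error is the log2 fold change divided by the square root of F. Exact permutation tests were two-sided (Python 3.11.15, numpy 2.4.6). The code was tested on simulated data.

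The members and gene lists were chosen with earlier results of these data known. The text names all members, genes of the pathway list past the threshold in TDE against CTR or NE, the constitutive proteasome subunits, and the 5 genes most like Tap1. H2-Aa, Psmb10, Psme1, Psme3, H2-M3, H2-Q7, H2-T22 and markers called were named after their values were seen. Positions came from GENCODE vM21 (GRCm38), in which 55450 of the entries were found, and promoters from RefSeq.

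The fits were repeated with DESeq2 1.42.0, with edgeR under library totals or median-ratio factors, without a filter, with a minimum of 10 counts, with the 6 libraries of a pair of groups, a replicate block, voom with quality weights (limma 3.58.1), ratios without division by gene length, and each library left out. Leaving out both CTR replicate 1 and NE replicate 3, and offsets fitted to gene length, were added after seeing the data.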

Additional observations from a re-analysis of the deposited data

How the results depend on the processing

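Tap1 passed in TDE against NE under every alternative run (edgeR adjusted p up to 0.043). In TDE against CTR, members called fell from 1 to 0 in the fit to the 6 libraries of the pair (adjusted p of Tap1 0.090) and with the replicate block (0.054), were 2 with voom and 3 without both CTR replicate 1 and NE replicate 3, and ranged from 0 to 1 when each library was left out. In TDE against NE they were 2 in the 6-library fit, 8 with voom, 7 without both libraries, and 1 to 2 when each library was left out. Pathway genes called against CTR (7 as reported) were 12 with DESeq2, 4 with library totals, 4 without a filter, 2 in the 6-library fit, 3 with the replicate block, 39 with voom, 35 without both libraries, 16 with length offsets, and 2 to 19 when each library was left out. Against NE (3 as reported) they were 6 with DESeq2, 24 in the 6-library fit, 36 with voom, 27 without both libraries, 12 with length offsets, and 1 to 24 when each library was left out. Genes called against CTR (2541 as reported) were 1152 in the 6-library fit, 1285 with the replicate block, 7886 with voom, 6853 without both libraries, and 1103 to 5263 when each library was left out. Against NE (2095 as reported) they were 6072, 1175, 8311 and 6911 under the same settings, 3173 with length offsets, and 970 to 6223 when each library was left out. In NE against CTR (0 as reported) they were 3 with DESeq2, 18 with voom, 10 without both libraries, and 0 to 3 when each library was left out. The highest counts with a library left out were without CTR replicate 1. The cause was not tested.

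In TDE against CTR, the log2 fold changes of Tap2, Psmb8 and Psmb9 turned to 0.26, 0.10 and 0.22 without both libraries, and that of Psmb9 ranged from -0.82 to 0.23 when each library was left out. Of 190 alternative values of the members in that comparison, 181 kept their side of the threshold, and 28 changed sign, 3 of them with both values larger than their standard errors. In TDE against NE 175 of 190 did, 15 passed it newly and 10 changed sign, and in NE against CTR all 190 did, with 14 changes of sign. Scaling by library totals shifted the median log2 fold change of all genes by 0.12 in NE against CTR.

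Neither labels nor methods state that the replicate numbers pair the libraries. Correlations of same-numbered deviations ran from -0.06 to 0.07 for TDE and CTR, from -0.07 to 0.03 for TDE and NE, and from -0.59 to 0.18 for NE and CTR. CTR replicate 1 and NE replicate 3 stand apart under different numbers, so these correlations cannot exclude a pairing. With 3 libraries a group and CTR replicate 1 apart from the rest, small differences of the members could not be settled. Each member had at least 589 estimated reads in every library.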
